A study of Mus musculus with 7 samples.

Results

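Marrow of mice transplanted with bone marrow cells that expressed EZH2-Mt was sorted on GFP (green fluorescent protein), and the GFP-positive fraction was compared with the GFP-negative fraction on 1 array each. These are 2 of the 7 arrays of the series, and they were chosen by their titles. The labels describe an MDS-like recipient, MDS being taken as myelodysplastic syndrome. Both fractions carry the EZH2-Mt transgene label, and the description field calls both of them controls. The other arrays hold unsorted marrow from recipients of mock-transduced cells (3 arrays) and of ABCG2-expressing cells (2 arrays). Recipients in every group had received transplanted marrow. The labels name no strain, age, interval after transplantation, vector, or species and nature of the EZH2-Mt protein, and they do not say what GFP marks. Mice are not numbered, so the 2 fractions cannot be assigned to a single mouse. The series compares marrow expressing genes altered in MDS with control marrow, and the sort separates transplanted EZH2-Mt marrow into 2 populations before RNA extraction.

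EZH2 is the catalytic subunit of Polycomb repressive complex 2 (PRC2), which methylates histone H3 and keeps developmental genes silent. Loss-of-function changes of EZH2 occur in myelodysplastic syndrome, in which blood cells form but mature poorly and the red cell lineage is often affected. Bone marrow holds stem and progenitor cells, the maturing granulocytic, monocytic, erythroid and megakaryocytic series, B cells and plasma cells, and a smaller number of T and NK (natural killer) cells.

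Each value is a log2 signal relative to the median of that probe set over the 7 arrays, so 0 marks the middle array and no absolute level is known. A difference is the GFP-positive minus the GFP-negative value, and a pair of values given as from the first to the second runs from the GFP-negative to the GFP-positive fraction. With 1 array a side there is no replicate check and no test, and the spread over the 3 mock arrays (highest minus lowest) stands beside a difference as its yardstick. This yardstick comes from unsorted marrow of other mice. In bulk RNA, fewer cells of a type and less RNA per cell cannot be told apart. A Present or Marginal call on every array was required for a probe set to be kept, so each gene described passed that call on both sorted arrays, with Marginal calls included. Genes that define marrow, such as Mpo of the granulocytic series and Hba-a2 of the red cell series, were among them, while no probe set for GFP was used here.

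A small share of the transcriptome differed 2-fold or more between the fractions. Of 16255 probe sets, 502 (3.09%) were at least 2-fold higher in GFP-positive marrow and 332 (2.04%) at least 2-fold lower. Together these 834 probe sets made up 5.13%. The same fold separated 337 probe sets (2.07%) of mock arrays 1 and 2, 410 (2.52%) of mock arrays 1 and 3, and 109 (0.671%) of mock arrays 2 and 3. Differences between the fractions ran from -3.24 to 2.81, and 72.9% of probe sets lay within 0.5 of 0. The sorted pair had more probe sets than mock arrays 2 and 3 at every size counted, and more than the pairs with mock array 1 up to 1.75 log2. At 1.5 log2 or more there were 173 probe sets in the sorted pair and 94, 110 and 15 in the mock pairs, while at 2 log2 or more the numbers were 36 against 36, 42 and 2. At 3 log2 or more the sorted pair had 2 probe sets and the mock pairs had 13, 11 and 0.

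**Figure D1:**
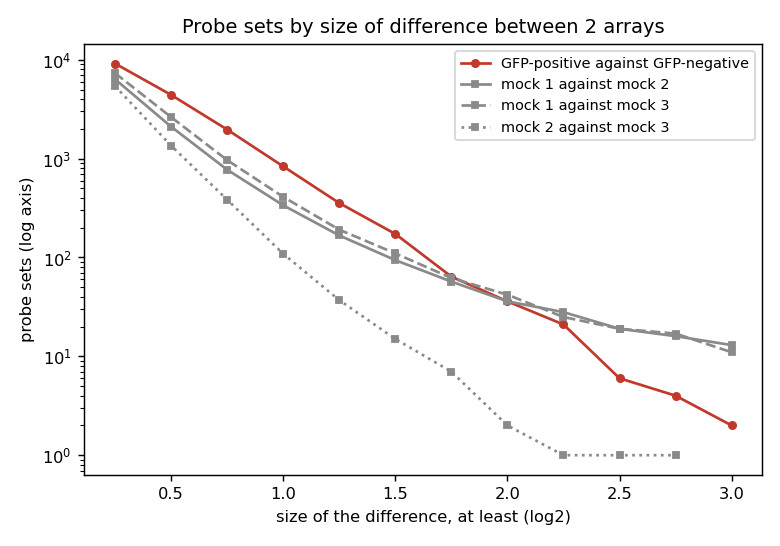
Number of probe sets (y axis, log scale) whose values on 2 arrays differed by at least the amount on the x axis (log2), for the sorted pair in red and the 3 mock pairs in grey. The red line lies above all mock pairs up to 1.75 log2, equals mock arrays 1 and 2 at 2 log2 and lies below mock arrays 1 and 3 there, lies below both pairs that contain mock array 1 from 2.25 log2, and stays above mock arrays 2 and 3 throughout.

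At the level of genes, 148 of 8378 were 2-fold or more higher in the GFP-positive fraction (1.77%) and 112 were lower (1.34%). The difference also exceeded the mock range in 132 of the higher (1.58% of all genes) and 97 of the lower genes (1.16%). Of the 3624 genes with several probe sets, 1820 (50.2%) had all of them on the same side of 0. Requiring such agreement left 21 genes higher (0.579% of 3624) and 23 lower (0.635%), of which 18 (0.497%) and 22 (0.607%) exceeded the mock range. The share past 2-fold was 4.52% of genes with 1 probe set and 1.24% of genes with several, whose values are means.

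All directions given here are relative to the bulk of probe sets, because the deposited arrays were scaled to each other in a way the sources do not describe. The bacterial and phage control RNAs that are spiked into each sample read higher in the GFP-positive sample in 40 of 40 probe sets, with a median difference of 1.54. Scaling to them would lower every difference by that amount, place 8352 of 8378 genes below 0 and move the median of all genes to -1.53. On that scale 3 of the 19 erythroid genes described next were higher and 16 lower, with a median of -0.27, and the T and NK cell median was -2.85. The order of genes and the gap between lists do not depend on this shift. The controls also read above mock on both sorted arrays, so placing a fraction above or below mock depends on the scale too. The part of this shift in the differences was not tested.

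Among the gene lists used here, erythroid genes had the highest median, and on the deposited scale all 19 measured genes of the 45 listed were higher in the GFP-positive fraction, against 51.0% of all genes. Their median difference was 1.27, against 0.01 over all genes, and 12 were at least 2-fold higher (63.2% of the list, against 1.77% of all genes). In 17 of the 19 the GFP-positive value was above the GFP-negative value and the latter above all 3 mock arrays, an order that held for 17.3% of all genes. The list median stood at 1.81 on the GFP-positive and 0.75 on the GFP-negative array, and at -0.54, -0.25 and 0 on mock arrays 1, 2 and 3. The 2-fold difference exceeded the mock range in 7 of the genes, and in 12 when mock array 1, the lowest mock array for many of them, was left out. Only 2 of the 19 had more than 1 probe set, and these agreed. On the deposited scale the erythroid list therefore lay above mock in both fractions, higher in the GFP-positive one. The spiked-in controls also read above mock, with medians of 1.51 on the GFP-negative and 3.09 on the GFP-positive array. Each is larger than the list median on the same array, so the place of the list against mock depends on the scale.

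Klf1, the transcription factor that switches on globin and red cell membrane genes, read 0.86 in the GFP-negative and 2.51 in the GFP-positive fraction, and -0.89, 0 and 0.75 on the mock arrays. That is a 3.12-fold difference, equal to the mock range of 1.64. The GFP-negative value of Klf1 was close to the highest mock array, and the GFP-positive value was far above it. Hba-a2, an alpha globin gene, went from 0.15 to 1.81 (3.16-fold higher), with mock values of 0, -0.62 and 0.04. Globin reads of this kind may include near-identical copies, since the mouse has paired alpha globin genes. Tal1, a master regulator of blood and red cell development, read 0.38 in the GFP-negative and 1.69 in the GFP-positive fraction, with mock values of -0.33, 0 and 0.44, and was 2.47-fold higher. For both Hba-a2 and Tal1 only the GFP-positive fraction stood clearly apart from mock.

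Ermap and Aqp1, which encode red cell membrane proteins, read above mock in both fractions. Ermap, an erythroid surface protein of the immunoglobulin superfamily, read 1.67 and 3.22 in the GFP-negative and GFP-positive fractions against mock values of -2.15, 0.32 and 0. The water channel gene Aqp1 went from 0.70 to 2.14 (2.72-fold higher), with mock values of -1.52, 0 and 0.13. Each of these differences was smaller than the mock range (2.47 and 1.65), which mock array 1 set. Rhag, which belongs to the Rh complex, and Ank1, the ankyrin that links the membrane to its skeleton, fall outside the naming rule and were picked after their values were seen. Rhag read 2.12 and 3.51, and Ank1 read 1.15 and 2.53, in the GFP-negative and GFP-positive fractions, with no mock value above 0 for either.

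Iron and heme genes were mixed. Of 31 measured genes in this list, 23 were higher and 8 lower (51.0% of all genes were higher), with a median difference of 0.21. The 2-fold higher members were 3 genes (9.68%, against 1.77% of all genes), namely Slc25a37, Tfrc and Alad. Slc25a37, the mitochondrial iron importer of erythroblasts, went from 1.14 to 2.30 (2.24-fold higher), against mock values of -0.36, -0.56 and -0.60. Tfrc, the transferrin receptor, had 2 probe sets that agreed (differences of 0.74 and 1.39), and its mean went from -0.12 to 0.94 with a mock range of 0.20. Alad, an enzyme of heme synthesis, went from 0.38 to 1.44 with mock values of -0.79, -0.22 and -0.06. All 3 exceeded their mock range. Flvcr1, a heme exporter, was the lowest of the list at -0.71. Mgst3 and Prdx2, antioxidant enzymes, and Bcl2l1, a survival factor of erythroblasts and other cells, were higher as well. Mgst3 went from 0 to 1.36, and Prdx2 went from 0 to 1.09 with mock values between -1.01 and -0.97 and both probe sets higher. Bcl2l1 went from 0.06 to 1.14, with mock values between -0.73 and -0.38.

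**Figure D2:**
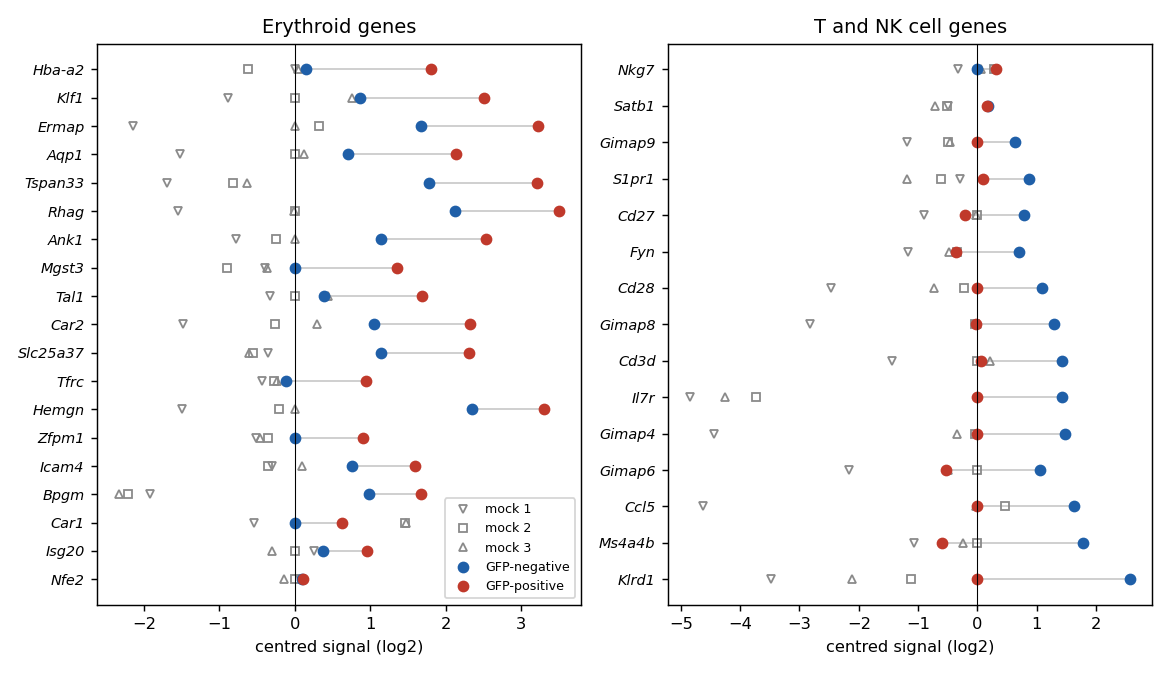
Centred log2 signal (x axis) of the 19 erythroid genes (left) and the 15 T and NK cell genes (right) on the GFP-negative (blue) and GFP-positive (red) arrays and the 3 mock arrays (grey), with genes ordered by difference. Erythroid genes read higher in GFP-positive than in GFP-negative marrow in 19 of 19, and T and NK cell genes read lower in 14 of 15.

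The letters AGATAA, 1 form of the site bound by GATA factors, were looked up in promoters of this list because its members lay together. GATA factors are the class of regulator that works with Tal1 in red cells. The window held 250 bases before and 50 after the gene start, taken from RefSeq promoters of build GRCm38.p6, and the motif was AGATAA or, on the opposite strand, TTATCT. Of the 19 genes 14 had a promoter, giving 18 windows, of which 4 (22.2%) held the letters, against 3672 of 32851 (11.2%) of all windows. The T and NK cell list had them in 0 of 16 windows of 11 genes. Close forms of the site were not counted. The letters TGATAA or TTATCA stand, for example, in windows of Klf1, Hba-a2, Rhag and Ermap, and in that of Gimap4. These counts therefore cover AGATAA and its reverse alone, and do not show which promoters lack a GATA site. The genes with a match were Tal1, Hemgn, Icam4 and Isg20. Windows of Tal1 (chr4:115056176-115056475, plus strand), Hemgn (chr4:46404134-46404433, minus strand) and Icam4 (chr9:21029182-21029481, plus strand) are shown 5′ to 3′, with the matching letters in capitals. A match describes the letters in the window, and no binding was measured. Hemgn, a nuclear protein of blood cell precursors, and Icam4, a red cell adhesion protein, were 0.96 and 0.83 higher in the GFP-positive fraction.
Tal1: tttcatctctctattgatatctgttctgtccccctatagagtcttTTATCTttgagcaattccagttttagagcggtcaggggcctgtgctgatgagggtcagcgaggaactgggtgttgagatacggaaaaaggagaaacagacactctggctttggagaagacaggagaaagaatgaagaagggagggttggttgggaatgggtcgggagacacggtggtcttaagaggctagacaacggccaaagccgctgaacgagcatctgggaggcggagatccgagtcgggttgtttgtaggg
Hemgn: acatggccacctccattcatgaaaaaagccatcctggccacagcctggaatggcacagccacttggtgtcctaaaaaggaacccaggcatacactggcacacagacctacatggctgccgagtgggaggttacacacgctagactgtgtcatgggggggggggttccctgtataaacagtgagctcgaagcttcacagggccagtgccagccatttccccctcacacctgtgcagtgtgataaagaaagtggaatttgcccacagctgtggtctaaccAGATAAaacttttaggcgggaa
Icam4: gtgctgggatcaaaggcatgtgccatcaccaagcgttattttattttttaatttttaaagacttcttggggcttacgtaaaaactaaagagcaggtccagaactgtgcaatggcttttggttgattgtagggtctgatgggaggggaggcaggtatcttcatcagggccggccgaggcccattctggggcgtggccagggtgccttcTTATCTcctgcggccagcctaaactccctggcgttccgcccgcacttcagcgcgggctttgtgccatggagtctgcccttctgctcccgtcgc

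T and NK cell genes had the lowest median of the lists with 9 or more measured genes. Of 15 measured genes of the 60 listed, 14 were lower in GFP-positive marrow, where 51.0% of all genes were higher. Of these, 10 were lower by 2-fold or more (66.7% of the list, against 1.34% of all genes), and the median difference was -1.31. In 14 of 15 the GFP-negative value was above all 3 mock arrays and above the GFP-positive value, an order seen in 21.6% of all genes. The list median was 1.08 in the GFP-negative and 0 in the GFP-positive fraction, and -1.43, -0.04 and -0.46 on mock arrays 1 to 3. In 8 genes the GFP-positive value was itself above all mock arrays, as it was in 42.5% of all genes. Of the 2-fold lower genes 4 exceeded the mock range, and 10 did so when mock array 1 was left out. Among the sorted and mock arrays, T and NK transcripts were thus highest in the GFP-negative fraction, with the GFP-positive fraction near mock arrays 2 and 3. The ABCG2 arrays were not part of this ordering.

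The largest difference of this list was that of Klrd1. It encodes CD94, which pairs with NKG2 proteins to read MHC class I on other cells, and its probe set read 2.58 in the GFP-negative and 0 in the GFP-positive fraction. Its mock values were -3.48, -1.13 and -2.12, so both fractions were above mock, and the fractions differed 5.98-fold. Klrc1, the gene of its inhibitory partner NKG2A, read 5.18 and 2.14, with mock values of -1.82, 0 and -0.36, and the difference of -3.03 was among the largest of the whole array. Cd244a, another NK cell receptor, had 2 probe sets that agreed (-1.40 and -1.10), and its mean went from 0.53 to -0.72. The chemokine Ccl5, made by cytotoxic lymphocytes, went from 1.63 to 0, with mock values of -4.63, 0.47 and -0.02. Its difference was smaller than the mock range of 5.10. Nkg7, a granule protein of the same cells, went the other way, from 0 to 0.31, within its mock range of 0.61.

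T cell genes followed. Ms4a4b, a membrane protein of T cells, read 1.78 in the GFP-negative and -0.60 in the GFP-positive fraction, 5.23-fold lower, with mock values of -1.07, 0 and -0.25. Gimap6, a GTPase of lymphocyte survival, went from 1.06 to -0.52, and mock array 1 at -2.17 kept this within the mock range. Il7r, the interleukin 7 receptor of T cells and lymphoid progenitors, read 1.43 and 0, 2.70-fold lower, whereas all mock arrays were between -4.84 and -3.74. Il7r was thus above mock in both fractions by more than the fractions differed. The T cell receptor component Cd3d, picked after its values were seen, went from 1.42 to 0.06. Satb1, a chromatin organiser of T cells with 4 probe sets, barely differed at -0.02.

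Among genes with several agreeing probe sets, which the comparison weights most, those past 2-fold and above the mock range had varied known roles. Igha, described with the plasma cell genes, had a larger mean difference but did not exceed its mock range. Of the higher genes that did, Kctd14 had the largest mean difference, from -1.35 to 0.10, with all 4 probe sets between 1.15 and 2.11. Cnn3, an actin-binding calponin, had 6 probe sets between 0.64 and 1.89, and its mean went from -1.75 to -0.33. The mock values of both genes lay between -0.31 and 0.29. In Kctd14 only the GFP-negative fraction was below all mock arrays. In Cnn3 both were, the GFP-positive one only just. Kcnq1ot1, an imprinted long noncoding RNA, read above all mock arrays in both fractions. It stood at 0 in the GFP-negative and 1.22 in the GFP-positive fraction, with mock values between -0.56 and -0.16. Over the 15 higher genes, the GFP-positive value was above all mock arrays in 13, against 42.5% of all genes. The GFP-negative value was below all of them in 8, against 30.7% of all genes. Both counts are read from genes chosen for their difference.

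The remaining higher genes of this group had differences between 1.04 and 1.24. Lpin2, a phosphatidate phosphatase, went from -0.54 to 0.69 over 3 agreeing probe sets. Xrcc3, a DNA repair protein, went from -0.53 to 0.60, although its 2 probe sets gave 0.22 and 2.05. Nme1, a nucleoside diphosphate kinase, was similarly uneven, with probe sets at 0.18 and 2.004. Smyd3, a lysine methyltransferase, went from -0.87 to 0.17 with a mock range of only 0.08. Rsad2, the interferon-induced antiviral protein viperin, went from 0.04 to 1.09 over 3 probe sets. Actb, the cytoplasmic actin often used as a reference, read 0.87 and 1.91 with mock values between -0.34 and -0.19, and so was above mock in both fractions. Endod1, Sec61a2 (a subunit of the protein translocon), Ncoa1 (a nuclear receptor coactivator) and Txnrd3 (a thioredoxin reductase) completed the group.

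The lower genes of this kind had varied roles too. F2r, the thrombin receptor PAR1, went from 0.40 to -1.15 (2.94-fold lower), with mock values of -0.83, 0 and -0.37. Itm2a, a membrane protein of T cell activation and progenitors, went from 1.45 to -0.10, with mock values between -0.64 and -0.16. Lgalsl, a galectin-like protein, went from 1.52 to -0.02 with mock values between -0.98 and -0.14. For Itm2a and Lgalsl both fractions read above all mock arrays, the GFP-negative one far above and the GFP-positive one only slightly. Rnpc3, a protein of the minor spliceosome, went from 0.11 to -1.33 with 2 probe sets in close accord (-1.45 and -1.41). Mndal, an interferon-inducible nuclear protein, went from -0.43 to -1.57 against mock values near 0. For Rnpc3 only the GFP-positive fraction stood below all mock arrays, and for Mndal both fractions did. Across the 15 lower genes, the GFP-negative value was above all mock arrays in 9, against 38.9% of all genes. The GFP-positive value was below all of them in 9, against 33.6% of all genes. These genes too were chosen for their difference.

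Malat1, an abundant nuclear noncoding RNA, was lower in all 6 probe sets, but by amounts between -3.24 and -0.13, with a mean from 0.56 to -0.85. Its lowest probe set was also the lowest difference of the array. Nabp1, a single-stranded DNA-binding protein, was more even, with 5 probe sets between -1.48 and -1.12. The lipin genes differed in opposite directions, since Lpin1, the paralog of Lpin2, went from 1.03 to -0.27 with both probe sets lower. Evl, an actin regulator, had both probe sets lower (-1.52 and -1.10), while Tsc22d1, a leucine zipper protein, had 4 lower by between -1.62 and -0.46. Tmem64, Klhl2 (a ubiquitin ligase adaptor), Sntb2 (a syntrophin) and Sertad3 had mean differences between -1.28 and -1.13.

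**Figure D3:**
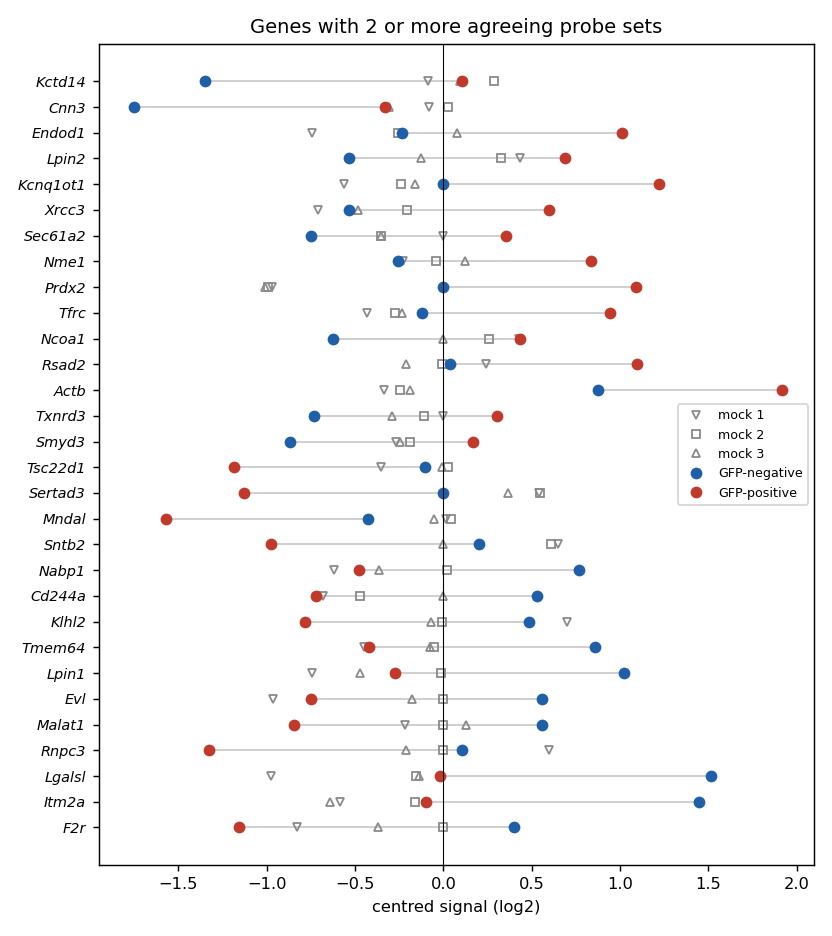
Centred log2 signal (x axis) on the 2 sorted arrays and 3 mock arrays for the 15 highest and 15 lowest genes that had several agreeing probe sets, a 2-fold difference and a difference above the mock range (values are means over probe sets). The GFP-positive value lies above all mock arrays for 13 of the 15 higher genes (42.5% of all genes). It lies below all of them for 9 of the 15 lower genes (33.6% of all genes). The genes were chosen for their difference.

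Among the other marrow lineages, primary granule genes of promyelocytes had 8 of 9 members higher, against 51.0% of all genes, with a median of 0.76. Mpo, myeloperoxidase, went from 0.16 to 1.19 with mock values between -0.32 and 0.03. It was the only one past 2-fold (11.1%, against 1.77% of all genes). The proteases Ctsg and Prtn3 were each 1.75-fold higher, and Ms4a3 was 1.88-fold higher. Among 34 later neutrophil genes 20 were higher and 14 lower, near the 51.0% of all genes that were higher, and the median of 0.08 became -0.01 under quantile normalization. Ngp and S100a9, products of neutrophil granules and cytosol, went from 0.45 to 1.55 and from 0.42 to 1.45, and both exceeded their mock ranges of 0.34 and 0.40. The pattern receptors Clec4e and Clec4d were on the lower side at -0.76 and -0.58. Monocyte and macrophage genes had a median of 0.08 and 1 of 28 past 2-fold, the mannose receptor gene Mrc1 (-1.33 to 0.19). That is 3.57% of the list, against 1.77% of all genes on the higher side. In this list the GFP-positive value was below all mock arrays in 20 genes (33.6% of all genes were) and the GFP-negative value in 22 (30.7% of all genes were). Irf8, a transcription factor of monocytes and dendritic cells, read -0.66 and 0 against mock values from 1.44 to 1.80.

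B cell and plasma cell genes were higher on balance but on a wide mock spread. Of 19 B lineage genes 15 were higher (against 51.0% of all genes), with a median of 0.64. The list had 4 genes 2-fold higher (21.1%, against 1.77% of all genes) and 1 2-fold lower, Il7r (5.26%, against 1.34%). Blnk, an adaptor of the B cell receptor, went from -0.17 to 1.51, and its mock values of -0.67, 0.49 and -1.41 spanned a range larger than the difference. Ms4a1, the gene of CD20, went from 0 to 1.24 with mock values of 0.03, -1.38 and -1.59. Cd79b, a signalling chain of that receptor, went from 0 to 1.01 with a mock range of 0.40, and with Il7r it made the 2 members past 2-fold and above the mock range. Of 13 plasma cell genes 11 were higher (against 51.0% of all genes), with a median of 0.30 that ranged from 0.28 to 0.62 over the alternatives. The 3 genes past 2-fold were 23.1% of the list, against 1.77% of all genes. Igha, the heavy chain of immunoglobulin A, had 3 probe sets between 2.47 and 2.81, and its mean went from -1.63 to 0.96. Mock array 1 read -1.94 for Igha and mock arrays 2 and 3 read 0.71 and 0.40, a range of 2.65 that the difference did not exceed. Jchain, which joins immunoglobulin A and M chains, went from -2.78 to -0.43 with a mock range of 1.37, and Sdc1, the plasma cell syndecan CD138, went from -1.08 to 0.55 with a mock range of 1.21. The median of the list was 0.16 in the GFP-positive and -0.27 in the GFP-negative fraction and between 0 and 0.03 on the mock arrays. In 7 of the 13 the GFP-negative value was below all mock arrays, against 30.7% of all genes.

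Stem and progenitor genes had no common direction, with 11 of 28 higher (against 51.0% of all genes) and 17 lower and a median of -0.05. Ctla2a, a protease inhibitor, went from 1.85 to 0, and Ctla2b, its near-identical neighbour, from 1.78 to -0.33. These 2 genes may share hybridisation. Angpt1, a niche factor made by progenitors as well, went from 0.60 to -0.73 with a mock range of 0.26. Megakaryocyte and platelet genes were lower in 11 of 14, where 51.0% of all genes were higher, with a median of -0.41. F2r was the only one past 2-fold (7.14%, against 1.34% of all genes). Zfpm1, the GATA1 partner shared with the red cell lineage, was the highest of that list at 0.90. Among 10 basophil, mast cell and eosinophil genes 2 were 2-fold lower (20.0%, against 1.34% of all genes). These were the carboxypeptidase gene Cpa3 (1.04 to 0) and Il6. Dendritic cell and MHC class II genes were higher in 12 of 17, against 51.0% of all genes, with a median of 0.32. That median ranged from 0.13 to 0.47 over the alternatives. H2-Aa, a chain of the class II dimer, went from -0.42 to 0.84 over 4 agreeing probe sets, and mock array 1 at -0.19 and the others at 1.25 and 1.09 gave a mock range of 1.44. Of the 29 stroma, bone and vessel genes only 3 were measured and none passed 2-fold.

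**Figure D4:**
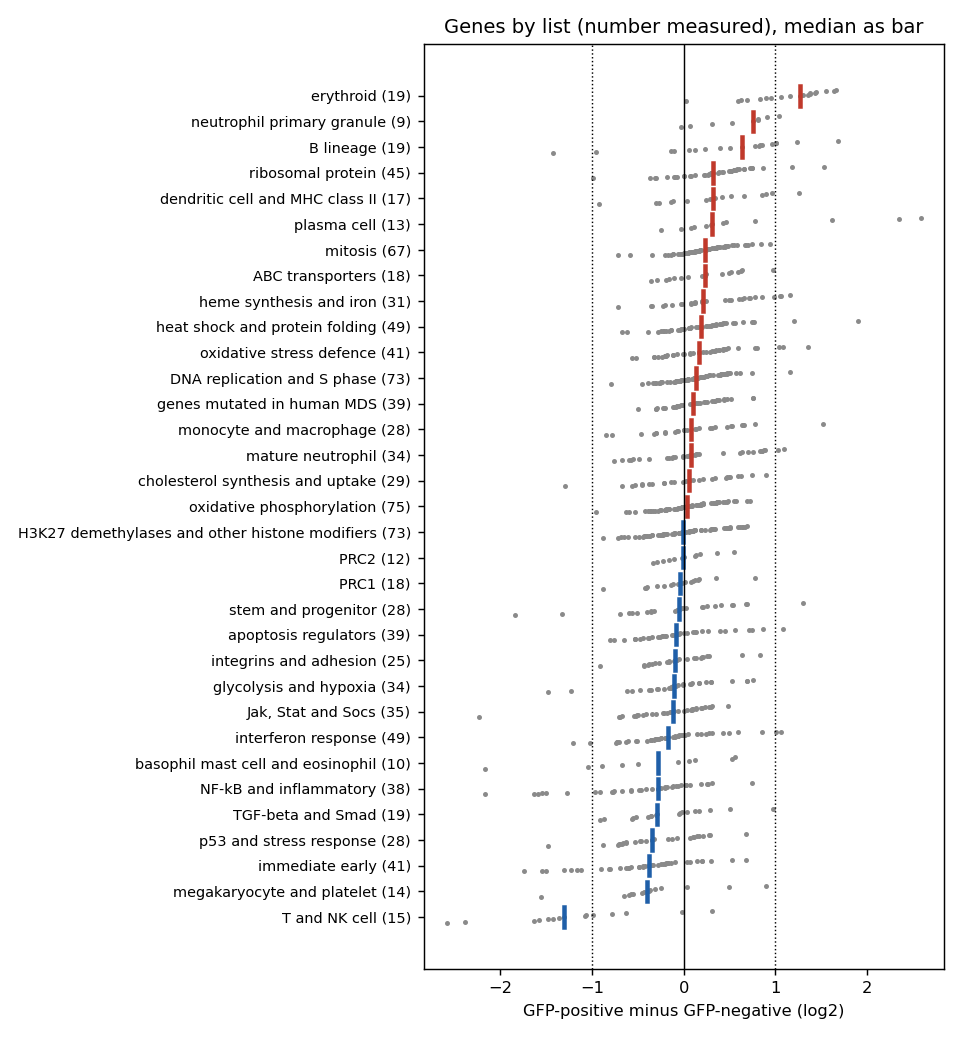
Difference between GFP-positive and GFP-negative marrow (x axis, log2) for every measured gene (dots) of each list with 9 or more measured genes, lists ordered by their median (bar, red above and blue below 0), with 2-fold marked by dotted lines. Erythroid genes have the highest median, 1.27, and T and NK cell genes the lowest, -1.31; apart from primary granule (0.76) and B lineage genes (0.64), the other medians lie between -0.41 and 0.33.

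Most immediate early genes read lower in the GFP-positive fraction, and a minority did so by 2-fold. Of 41 immediate early genes, which respond rapidly to stimulation, 33 were lower, where 51.0% of all genes were higher. The 2-fold lower members were 7 (17.1%, against 1.34% of all genes). The list median was -0.38 (-0.48 to -0.25 over the alternatives). The difference exceeded the mock range in 3 of these 7, Egr3, Egr2 and Ier3, and not in Rgs1, Dusp5, Cd69 or Dusp2. Egr3 and Egr2, zinc finger factors of activated lymphocytes and other cells, went from 1.48 to -0.26 and from 1.51 to 0, and both exceeded their mock ranges of 0.72 and 0.37. Ier3, a survival gene of the same class, went from 2.89 to 1.34 with mock values between -0.78 and 0.23. In Egr3 only the GFP-negative fraction stood above all mock arrays. In Ier3 and Egr2 both fractions did, the mock values of Egr2 lying between -0.70 and -0.33. The mock arrays differed too, with a list median of -0.70 on mock array 1 and 0 on the others.

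NF-kB and inflammatory genes included some of the same members. Of 38 measured genes 30 were lower, where 51.0% of all genes were higher, and the median was -0.28. The 2-fold lower members were 6 (15.8%, against 1.34% of all genes). Of the 6, Il6, Ier3 and Ccl3 exceeded their mock range and Ccl5, Ccl4 and Osm did not. Il6, the cytokine, went from 2.17 to 0 (4.51-fold lower), with mock values of -1.16, 0.46 and 0.56. Ccl4, a chemokine of activated leukocytes, went from 2.33 to 0.74 with a mock range of 2.03 that exceeded the difference. Socs2, a feedback inhibitor of cytokine receptors, went from 1.61 to -0.63, 4.72-fold lower, with mock values of -1.36, 0 and -0.34. It was the only one of 35 Jak, Stat and Socs genes past 2-fold (1.34% of all genes were 2-fold lower), and the list median was -0.12. Interferon response genes were lower in 36 of 49, where 51.0% of all genes were higher, with a median of -0.17. The list had 2 genes 2-fold apart on each side, against 1.34% of all genes lower and 1.77% higher. Nlrc5, the activator of MHC class I genes, went from 1.19 to -0.03 with mock values between -0.15 and 0. Rtp4 read -2.99 and -4.02 against mock values from 0 to 0.56, so it was far below mock in both fractions. Rsad2 and Oasl1 were the 2-fold higher members. Of 28 genes of the p53 and stress list 19 were lower, where 51.0% of all genes were higher. Ddit4, an inhibitor of mTOR signalling, was the only one past 2-fold (0.40 to -1.08), where 1.34% of all genes were 2-fold lower.

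Growth-related lists differed by small and mostly same-sided amounts. Of 67 mitosis genes 54 were higher, against 51.0% of all genes, with a median of 0.24 (0.13 to 0.27 over the alternatives) and none past 2-fold. Mki67, the proliferation marker, went from 0.37 to 1.21, and Cdc25b, a phosphatase that triggers mitosis, from 0.17 to 1.12. Of 73 replication genes 50 were higher, against 51.0% of all genes, with a median of 0.14 (0.04 to 0.13 over the alternatives). Pole, the leading-strand polymerase subunit, was the only one past 2-fold (-0.12 to 1.04), where 1.77% of all genes were 2-fold higher. Ribosomal protein genes were higher in 36 of 45, against 51.0% of all genes, with a median of 0.33. Rpl27a (1.09 to 2.63) and Rps27 (0 to 1.18) passed 2-fold, as 1.77% of all genes did on the higher side. Ribosomal protein genes have many processed copies, so their probe sets can read more than the named gene. Rps14, the ribosomal gene of the deleted region in a form of MDS, had both probe sets higher and went from 0.12 to 0.65. Oxidative phosphorylation genes (75 measured) had a median of 0.03 and none past 2-fold. Hyou1, a chaperone of the endoplasmic reticulum, went from -1.14 to 0.77 and was the largest difference among 49 heat shock and folding genes, whose median was 0.19.

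Ezh2 itself did not separate the fractions. Its only probe set read -0.14 in the GFP-negative and -0.16 in the GFP-positive fraction, with mock values of -0.22, 0.14 and 0. The transgene's species and the part of the transcript it contains are not given, so this probe set does not check the labels. None of the 12 measured PRC2 genes passed 2-fold, and their median difference was -0.01. Phf19, an accessory subunit that brings the complex to chromatin, was the highest and went from 0.45 to 0.998, with a mock range of 0.46. The core subunits Suz12 (0.18) and Eed (-0.11) and the histone-binding subunits Rbbp4 (0.14) and Rbbp7 (0.12) differed little, and the 5 probe sets of Suz12 disagreed, from -0.31 to 0.79. Jarid2 was 0.37 higher, and Ezh1, Phf1, Aebp2 and Lcor were lower by amounts from -0.34 to -0.16. Mtf2 was at 0.01. Of 18 PRC1 genes none passed 2-fold either, and Bmi1, a subunit needed for stem cell self-renewal, had the lowest value, from 0.12 to -0.76 with both probe sets lower. The 73 histone modifiers had a median of -0.005 and none past 2-fold, and the 39 genes mutated in human MDS had a median of 0.10 and none past 2-fold.

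Abcg2, the drug efflux pump that the series also expresses as a transgene, was higher in the GFP-positive fraction. Its probe set read 0.84 in the GFP-negative and 1.35 in the GFP-positive fraction and 0.02, -0.17 and 0 on the mock arrays. On the 2 arrays of marrow expressing the ABCG2 transgene it read -0.92 and -0.91, the lowest of the 7 arrays, so this probe set does not report that transgene's label. Both fractions were thus above all mock arrays, and they differed 1.43-fold, more than the mock range of 0.20. The difference was below the median of the erythroid genes. Among 18 ABC transporter genes 12 were higher, against 51.0% of all genes, with a median of 0.23 (0.11 to 0.25 over the alternatives). None passed 2-fold. Abcb4, a phospholipid floppase, came closest, from 0.33 to 1.30, and Abcb10, a mitochondrial transporter of red cell precursors, had both probe sets higher and went from 0.43 to 1.06.

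Genes with 1 probe set and no second reading included several of the largest differences. The higher ones were led by an immunoglobulin kappa variable segment (-3.84 to -1.48) and by Jchain. Next came Vill, a villin-like actin protein (-1.25 to 0.94), and Cacna1d, a calcium channel subunit (-0.62 to 1.42). The mock values were 2.64, 1.03 and 0.69 for the immunoglobulin segment but lay within 0.36 and 0.20 of each other for Vill and Cacna1d. Slc17a3, Cnnm2 and Asah2 were 3.49-, 3.40- and 3.33-fold higher. After Klrc1, Klrd1, Ms4a4b, Socs2, Il6, Ctla2b and Ctla2a, the lowest was Cfap298, a cilium assembly protein, from 0.72 to -1.08. Of these 8 lower genes the GFP-negative value was above all mock arrays in 8, against 38.9% of all genes, a count read from genes chosen for their difference. Of the 8 higher genes, chosen likewise, the GFP-positive value was above all mock arrays in 6, against 42.5% of all genes. Their GFP-negative value was below all of them in 6, against 30.7% of all genes.

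The array controls set the frame for all of these values. The median of the 40 spiked-in probe sets was 0 on each mock array, 1.51 on the GFP-negative and 3.09 on the GFP-positive array. For the poly-A controls, which are usually added before labelling, the median difference was 1.63, and for the hybridization controls, usually added afterwards, it was 1.28. The 3 probe sets of 18S ribosomal RNA were higher as well, with a median difference of 1.16. The 3′ probe set differed more than the 5′ one by 0.17 for Actb and 0.26 for Gapdh, against mock ranges of 0.09 and 0.18. The spread of probe sets on the array, as SD, was 0.54 for GFP-positive, 0.41 for GFP-negative and between 0.34 and 0.42 for mock marrow. Whether these readings account for any of the gene differences was not tested.

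**Figure D5:**
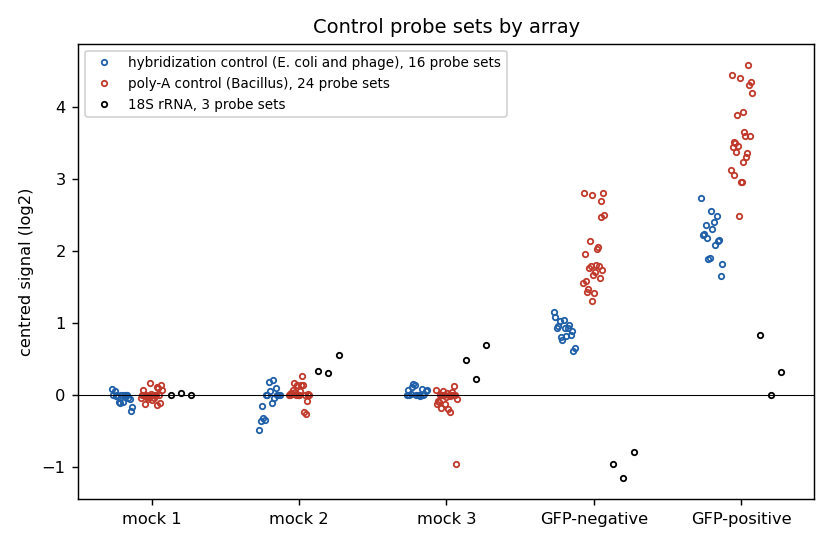
Centred log2 signal (y axis) of the spiked-in hybridization controls, spiked-in poly-A controls and 18S ribosomal RNA probe sets on the 3 mock and 2 sorted arrays, each circle a probe set. The spiked-in controls lie near 0 on the mock arrays, around 1.51 on the GFP-negative and around 3.09 on the GFP-positive array (medians).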

How the data were processed

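RNA of marrow cells was profiled on 7 Affymetrix Mouse430_2 arrays, with biotin-labelled cRNA made from total RNA, per the labels' protocols. The deposited log2 values are normalized by the authors and filtered, per the file headers, on raw signal between 3 and 120534.25 and on being called Present or Marginal in 100% of arrays. The submitters' processing notes name MAS5 without a version, and the scaling between arrays is not given in the sources used here. The base of the logarithm is not stated and is taken as 2. Every probe set has a median of 0 over the 7 arrays.

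From 16309 probe sets 54 control sets were set apart. The platform annotation gave 1 symbol for 14229 of the remaining 16255, several for 483 and none for 1543, and 14203 gene IDs matched RefSeq GRCm38.p6. A gene's value was the mean over its probe sets (8378 genes). Differences of 2-fold or more (1 log2) were counted, with the range over the 3 mock arrays beside them and the number of arrays limiting the precision. No test was made with 1 array a side. Counts were computed with Python 3.11.15, pandas 2.3.3 and numpy 2.4.6. The counting steps were also run on simulated arrays with planted differences, which checks the code and not how reliable these counts are.

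Genes were named by rule: the 15 highest and 15 lowest with several agreeing probe sets, 2-fold and above the mock range; up to 4 a direction of each of 37 lists; Ezh2, Abcg2 and PRC2 members; and up to 8 a direction of single-probe-set genes. Other names were chosen after their values were seen. The comparison, the lists and this rule were chosen with earlier results of these data known. Sex-linked transcripts had 0 measured members. Alternatives were quantile normalization, median centring, other fold thresholds, natural logs, another choice of probe sets, and leaving out each mock array. The ABCG2 arrays entered only the centring, the quantile normalization and the reading of Abcg2.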

Additional observations from a re-analysis of the deposited data

Results flagged for a closer look

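The spiked-in control probe sets, which no gene comparison uses, carried a signal above the mock arrays. Their median was 1.51 on the GFP-negative array and 3.09 on the GFP-positive array, against 0 on each mock array, and the median difference between the fractions was 1.54. All 40 were above every mock array in both fractions. The 18S ribosomal RNA probe sets, also outside the gene comparisons, gave a median difference of 1.16, from 1.12 to 1.79, and here the GFP-negative median of -0.96 lay below the mock medians of 0, 0.33 and 0.48. Neither reading was tested against the gene differences.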

How the results depend on the processing

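Every count moved with the threshold or scaling by more than 1.5 times. Quantile normalization over the 7 arrays gave 804 probe sets higher and 762 lower in place of 502 and 332, with 53 and 64 agreeing genes in place of 21 and 23, and 240 and 221 genes above the mock range in place of 132 and 97. A 1.5-fold threshold gave 1914 and 1410 probe sets, 154 and 147 agreeing genes, and 588 and 480 genes above the mock range. A 3-fold threshold gave 79 and 48, 1 and 0, and 19 and 12. If the values are natural logs, the 2-fold counts are 1364 and 982, 82 and 80, and 382 and 316. Without probe sets whose suffix marks shared or cross-hybridising targets, 8 and 9 agreeing genes were left, fewer probe sets being available to agree. Scaling to the spiked-in controls, chosen after seeing the data, left 1 probe set 2-fold higher and 14067 lower. Subtracting the median difference kept each of these counts within 1.5 times, as did, for genes above the mock range, the median over probe sets and the least different probe set. Leaving out each mock array gave between 138 and 145 higher and between 98 and 112 lower genes above the mock range. The same step gave between 7 and 12 erythroid genes and between 4 and 10 T and NK cell genes, an alternative also added after seeing the data. Of 36 list medians 6 changed sign under at least 1 of 5 alternatives, the histone genes under 2, and all 6 had a size of at most 0.09. Of the 18 list medians with a size of at least 0.2, 9 moved by over 1.5 times under some alternative, among them plasma cell (up to 0.62), dendritic cell and MHC class II (down to 0.13) and immediate early genes (up to -0.25). The erythroid median lay between 1.04 and 1.29 and the T and NK cell median between -1.65 and -1.19. The cause of these shifts was not tested beyond what each alternative changes by construction. No paired analysis was possible because each fraction is 1 array and the result comes from no test. Values near background could not be judged, since no detection value is used here.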

Other observations

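MHC class I genes, picked after their values were seen, leaned lower in the GFP-positive fraction. H2-D1, a classical class I heavy chain, had 5 probe sets between -1.59 and -0.44, and its mean went from 0.11 to -0.69, with a mock range of 0.44. H2-K1 had 4 probe sets, all lower, and went from 0.11 to -0.34, and H2-M3 went from -0.65 to -1.23. The shared light chain gene B2m did not follow, at 0.13 within a mock range of 0.23. A further 6 probe sets that match several class I genes were all lower, by between -2.65 and -0.30, and 3 of them by 2-fold or more. In the GFP-positive fraction 4 of 4 measured class I genes were below all mock arrays, against 33.6% of all genes, a count over genes chosen for their values. Class I genes are alike in sequence, so these probe sets may share signal.

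Immunoglobulin genes formed another group picked after the values were seen. All 8 measured were higher in the GFP-positive fraction (51.0% of all genes were), 7 of them 2-fold or more (1.77% of all genes were), with a median of 1.58, and 6 exceeded the mock range. In 6 of 8 the GFP-negative value was below all mock arrays, against 30.7% of all genes. Iglv1, a lambda light chain segment, went from -2.16 to -0.48 with mock values of 0.89, 0.36 and 0.70. Ighm, the heavy chain of immunoglobulin M, was uneven, with 7 probe sets from -0.63 to 1.72 and a mock range of 2.91.

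Of the 1543 probe sets without a gene symbol 180 were 2-fold higher and 32 lower, together 13.7%, against 4.52% for genes with 1 probe set and 4.11% for probe sets of genes with several. In the mock pairs the unnamed sets passed 2-fold in 4.34%, 5.96% and 1.49%, against 2.42%, 2.76% and 0.589% for genes with 1 probe set.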
